A study of Mus musculus with 12 samples.

Results

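The mRNAs of effector cytokines were followed across 4 groups of mouse CTL, the cytotoxic effector cells that CD8+ T cells become after activation. The members were the rows of the deposited table whose gene symbol was Ifng, Tnf, Lta, Ltb, Csf2, Il10, Il24, Lif or Cd40lg, and 9 of 9 were present among 13283 genes. All CTL came from female mice aged 11 to 27 weeks that carried a Cre recombinase driven by the granzyme B promoter, the WT controls included. WT CTL kept FOXO1, and FOXO1-GFP KO CTL carried floxed FOXO1-GFP alleles that the Cre deletes. Cells from lymph nodes or spleens were activated for 48 h through CD3 and CD28 in IL-2 at 20 ng/mL and IL-12 at 2 ng/mL and were then maintained in both cytokines. For the last 24 h they received the PI3K p110δ inhibitor IC87114 at 10 µM (PI3Kdi) or its vehicle DMSO. The 4 groups, each of 3 libraries, were thus WT, WT+PI3Kdi, FOXO1-GFP KO and FOXO1-GFP KO+PI3Kdi. Live CD8+ cells were sorted, and in the FOXO1-GFP KO groups the gate also removed cells that still carried the GFP-tagged FOXO1, so genotype and gate cannot be told apart.

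Values are FPKM, the number of sequenced fragments of a gene scaled by its exon length and by the size of the library. They can be compared between genes as well as between libraries. Depth recovered from the values themselves ranged from 12.9 to 48.0 M reads per library. Foxo1 stood between 0.58 and 1.75 FPKM in the 6 FOXO1-GFP KO libraries and between 5.77 and 10.46 FPKM in the 6 WT libraries, without overlap. The 9 CD8 T cell markers, Cd8a and Gzmb among them, summed to between 9385 and 13793 FPKM. Most of that sum was Gzmb, with group means of 8305 to 9820 FPKM, while those of Cd8a were 153.9 to 220.4. The CD4 T cell markers summed to at most 8.24 FPKM over the 3 of 4 genes in the table, Cd40lg among them. Most of this was Zbtb7b, with group means of 5.13 to 6.43 FPKM. Cd4 stood at 0.44 to 0.57 FPKM in the WT and 0.83 to 0.95 FPKM in the WT+PI3Kdi libraries, a log2 change of 0.68 that was called with replicate number as a block (adjusted p = 0.0413 from limma) and not without it (adjusted p = 1). Of 12 B cell markers, 9 were not in the table, Ms4a1, Cd79a and Pax5 among them. Of 12 myeloid markers 7 were not in the table, Lyz2 and Csf1r included, and the remaining 5 summed to between 33.0 and 64.9 FPKM. Most of that sum was Cd68 and Fcer1g, with group means of 18.1 to 23.5 and 28.9 to 33.4 FPKM. Itgam, Itgax and Cd14 were at most 0.41 FPKM in any library. Of 8 markers of NK cells and ILC 5 were in the table, without Ncr1, the defining NK cell receptor. They summed to 10.8 to 11.7 FPKM in WT, 12.2 to 14.1 in WT+PI3Kdi, 10.9 to 12.6 in FOXO1-GFP KO and 12 to 14.6 in FOXO1-GFP KO+PI3Kdi libraries. Of these 5, Il1rl1, the IL-33 receptor, was called lower in FOXO1-GFP KO CTL, with an average log2 difference of -1.02 (adjusted p = 0.00511 from limma, 0.0311 with the block). The others went the other way and were not called, and the median average difference of the 5 was 0.55. Without PI3Kdi their FOXO1-GFP KO and WT means were 3.27 and 2.28 FPKM for Klrb1c and 0.467 and 0.33 for Klre1. Those of Tyrobp were 1.78 and 1.07 FPKM and those of Gata3 4.39 and 4.31. Because these are bulk samples, fewer cells that make a cytokine and less cytokine mRNA per cell cannot be told apart.

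Cytokines are the means by which CTL act on cells other than the target they kill. IFN-γ, the product of Ifng, acts on macrophages and on antigen presentation through a receptor made of Ifngr1 and Ifngr2. Tnf, Lta and Ltb encode the related ligands TNF, lymphotoxin α and lymphotoxin β, which lie side by side in the genome, and lymphotoxin β anchors lymphotoxin α at the cell surface. Csf2 encodes GM-CSF, which acts on myeloid cells. IL-10 restrains inflammation and IL-24 is its relative of the same gene cluster. LIF belongs to the IL-6 family and signals through gp130, and CD40 ligand, encoded by Cd40lg, is the signal by which helper T cells activate B cells and dendritic cells. PI3K p110δ signals downstream of antigen and cytokine receptors, and its product activates AKT, which keeps FOXO1 out of the nucleus. Inhibition of p110δ therefore lets FOXO1 enter the nucleus, and the comparison of the genotypes asks which responses to PI3Kdi need FOXO1.

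The levels of the 9 mRNAs spanned a wide range. Lta was the most abundant, with a mean of 230.2 FPKM over the 12 libraries, and it was above Tnf, the next gene at 70.4 FPKM, in 12 of 12 libraries. Tnf, Ltb, Il24 and Il10 followed at means of 70.4, 63.6, 58.3 and 48.6 FPKM. These 4 neighbours were not separated beyond their spread: Tnf exceeded Ltb in 7 of 12 libraries, Ltb exceeded Il24 in 7 and Il24 exceeded Il10 in 8. Il10 exceeded Lif (35.7 FPKM) in 10 of 12 libraries, and Lif exceeded Ifng (21.6 FPKM) in 11. Csf2 at 1.69 FPKM was below Ifng in 12 of 12 libraries. Cd40lg was lowest at 0.586 FPKM, below Csf2 in 12 of 12 libraries although their ranges overlapped. The order was not the same in the 4 groups: Ltb was the second most abundant member in WT+PI3Kdi and the sixth in FOXO1-GFP KO CTL, while Il24 was sixth in WT and second in FOXO1-GFP KO+PI3Kdi CTL.

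**Figure D1:**
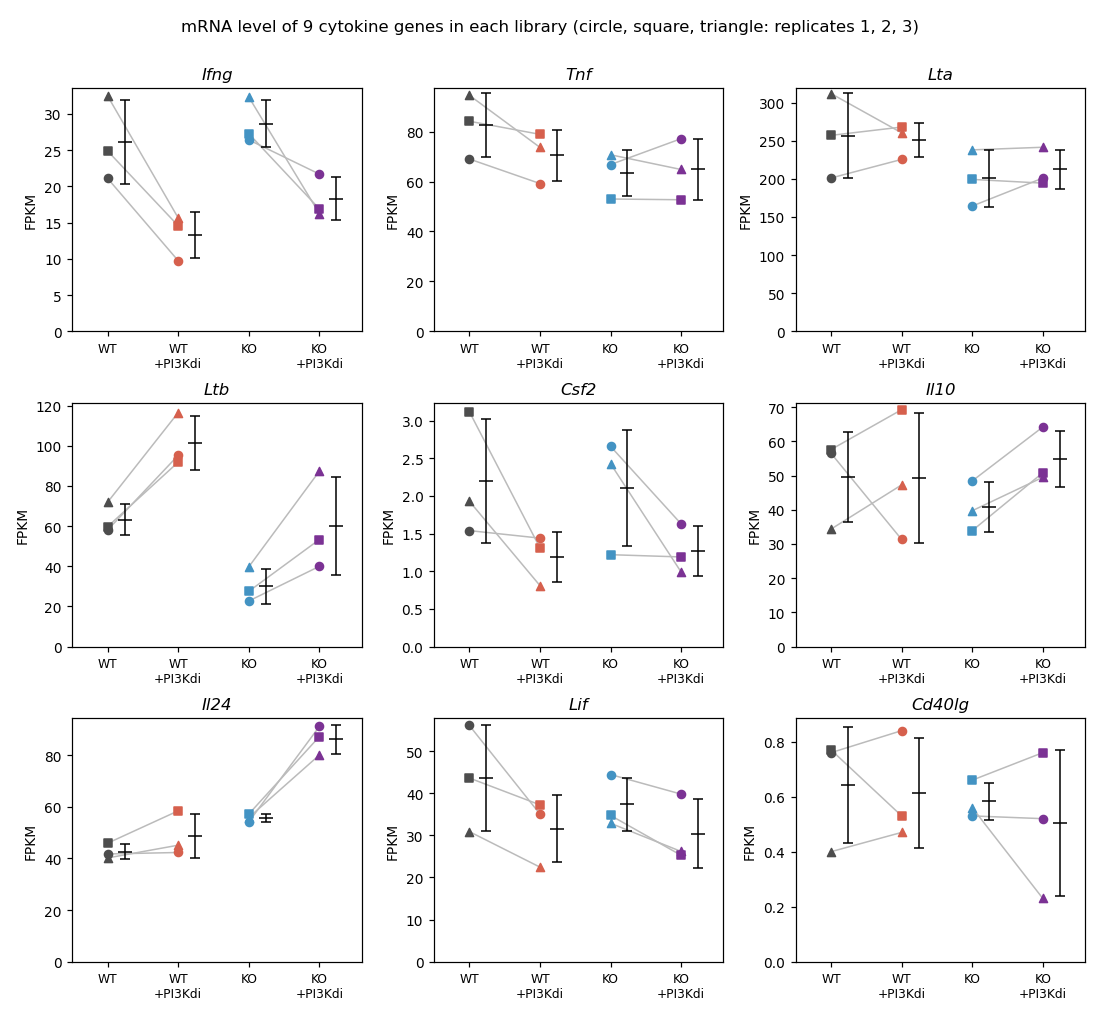
FPKM of each member (vertical axes, from 0) in the 4 groups, with KO for FOXO1-GFP KO. Each point is a library, grey lines join the libraries of the same genotype and replicate number, and black bars are the mean and SD of 3 libraries. Ifng, Csf2 and Lif were lower with PI3Kdi in 6 of 6 pairs, and Ltb and Il24 were higher in 6 of 6.

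The first question was which of these mRNAs respond to PI3Kdi. In the pairs formed by replicate number within a genotype, Ltb and Il24 were higher with PI3Kdi in 6 of 6 pairs and Ifng, Csf2 and Lif lower in 6 of 6. Of all genes, 23.2% had 6 pairs of the same direction. A gene was called where limma gave an adjusted p under 0.05 over all genes with a fold change over 1.5, and errors of log2 fold changes are SE. Without regard to pairs, limma called 0 of 9 members in WT CTL, where 0.0979% of all genes were called and 3 members (Ifng, Ltb and Csf2) had an unadjusted p under 0.05. In FOXO1-GFP KO CTL it also called 0 of 9, against 0.0452% of all genes, with 3 members (Ifng, Ltb and Il24) at an unadjusted p under 0.05. Averaged over the genotypes it called 1 of 9, Ifng, against 0.467%, and voom on estimated reads gave the same counts. With the replicate number as a block within genotype, 2 of 9 were called in WT, against 2.57% of all genes, 3 of 9 in FOXO1-GFP KO, against 2.79%, and 3 of 9 on average, against 2.12%. The libraries with and without PI3Kdi did not overlap for 3 of 9 members in WT (Ifng, Ltb and Csf2), beside 10.2% of all genes, and for 4 of 9 in FOXO1-GFP KO (Ifng, Ltb, Il10 and Il24), beside 10.1%. The median change of the 9 members was -0.05 on the log2 scale for WT and 0.02 for FOXO1-GFP KO CTL, beside -0.04 and -0.02 for all genes.

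**Figure D2:**
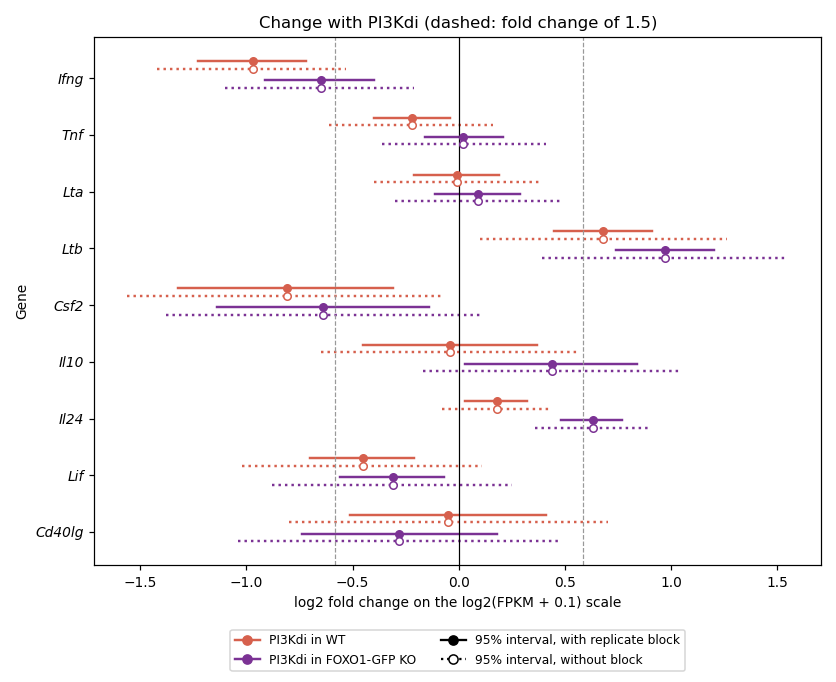
Log2 fold change with PI3Kdi for each member (horizontal axis) in WT and FOXO1-GFP KO CTL, with 95% intervals from limma with the replicate block (solid) and without it (dotted). Ifng lay at -0.97 and -0.65 and Ltb at 0.68 and 0.97, and their intervals exclude 0 in both fits.

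The second question was whether loss of FOXO1 alters the members or their response to PI3Kdi. Without PI3Kdi, 0 of 9 members were called between the genotypes by limma without a block, where 0.331% of all genes were called, and 0 of 9 with it, against 0.233%. Ltb and Il24 were the 2 members with an unadjusted p under 0.05 in the first fit, and Tnf joined them in the second. With PI3Kdi, 1 of 9 was called, Il24, against 1.45% of all genes without the block and 1.18% with it. Averaged over the treatments, 2 of 9 were called without the block, Il24 and Ltb, against 2.52%. With the block 0 of 9 were called, against 0.67%, and these 2 members had an unadjusted p under 0.05. The libraries of the 2 genotypes did not overlap for 2 of 9 members without PI3Kdi (Ltb and Il24), beside 10.3% of all genes, and for 3 of 9 with it (Ifng, Ltb and Il24), beside 14.8%. The difference between the responses of the 2 genotypes was called for 0 of 9 members in both fits, where 0% and 0.0226% of all genes were called. Il24 was the 1 member with an unadjusted p under 0.05 for that difference, in both fits.

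**Figure D3:**
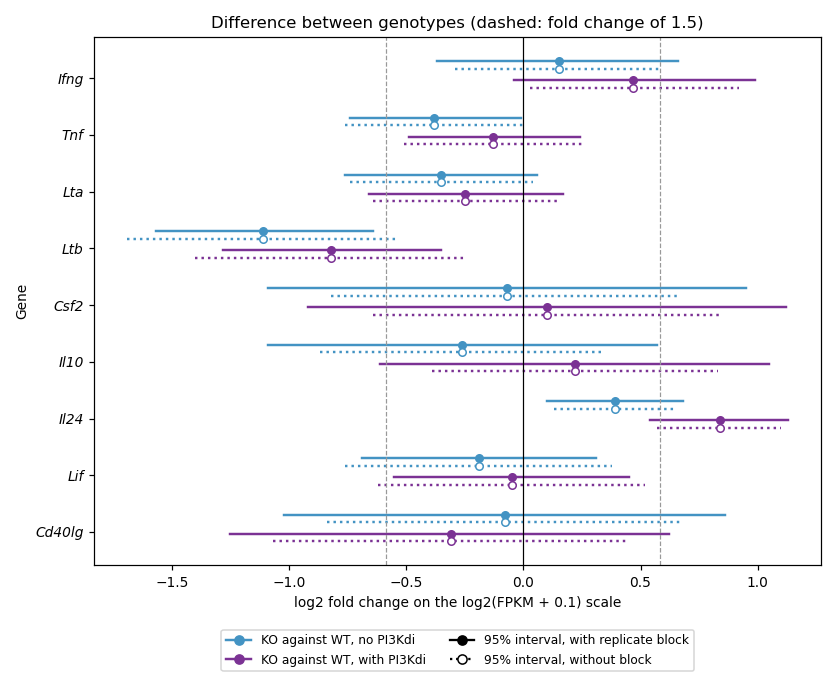
Log2 fold change of FOXO1-GFP KO against WT CTL for each member (horizontal axis), without and with PI3Kdi, with 95% intervals from limma with the replicate block (solid) and without it (dotted). Ltb lay at -1.11 and -0.82 and Il24 at 0.39 and 0.84.

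With the replicate number as a block, Ifng fell with PI3Kdi in both genotypes. WT libraries held 21.08, 24.86 and 32.44 FPKM and WT+PI3Kdi libraries 9.73, 14.55 and 15.63 FPKM. FOXO1-GFP KO libraries held 26.40, 27.25 and 32.30 FPKM and FOXO1-GFP KO+PI3Kdi libraries 21.68, 16.88 and 16.23 FPKM. The groups with and without PI3Kdi did not overlap in either genotype. Group means were 26.1 ± 5.78 and 13.3 ± 3.14 FPKM in WT and 28.6 ± 3.19 and 18.3 ± 2.98 FPKM in FOXO1-GFP KO CTL (SD, n = 3). Averaged over the genotypes, the log2 fold change was -0.81 ± 0.14 (SE) with an adjusted p of 0.0365 from limma. With the replicate block, the change of -0.97 ± 0.12 in WT had an adjusted p of 0.000442 and that of -0.65 ± 0.12 in FOXO1-GFP KO CTL one of 0.00656. Without the block, the same changes had adjusted p values of 0.136 and 0.651. In FOXO1-GFP KO CTL the blocked change was -0.50 without FOXO1-GFP KO replicate 3 and -0.51 without FOXO1-GFP KO+PI3Kdi replicate 3, both under a fold change of 1.5. The average change without the block lost its call when any of 9 of the 12 libraries was left out, with adjusted p values of 0.0521 to 0.106. The 3 whose removal kept it were replicate 1 of WT, WT+PI3Kdi and FOXO1-GFP KO+PI3Kdi.

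Between the genotypes Ifng was not called. In vehicle the log2 difference was 0.15, with a 95% interval from -0.29 to 0.59, and the libraries overlapped. With PI3Kdi it was 0.47 (interval 0.03 to 0.92, adjusted p = 0.451 from limma), and the 3 FOXO1-GFP KO+PI3Kdi libraries were above the 3 WT+PI3Kdi libraries. The responses of the 2 genotypes differed by 0.32, with an interval from -0.04 to 0.68 under the block and an adjusted p of 0.525. A response in FOXO1-GFP KO CTL as large as in WT, and one smaller by up to 0.68 on the log2 scale, are both within that interval. The comparisons of treatment and of genotype share libraries, so their values are not independent of each other.

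Ifng (ENSMUSG00000055170) lies on the plus strand at chr10:118441046-118445892 in GRCm38, where the annotation places a gene model of the same strand, Gm49751, over it, so reads could be shared. Its promoter is shown because Ifng was called lower in both genotypes under the block. It spans chr10:118440796-118441095 on the plus strand, from RefSeq on GRCm38.p6, with 250 bases before the start site and 50 after it. Capitals mark a STAT motif, TTCNNNGAA, at its upstream end and a TATA box, TATAAA, 30 bases before the start. Of 32851 promoters of this length, 8.30% held the former and 13.6% the latter on either strand.

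Ifng promoter: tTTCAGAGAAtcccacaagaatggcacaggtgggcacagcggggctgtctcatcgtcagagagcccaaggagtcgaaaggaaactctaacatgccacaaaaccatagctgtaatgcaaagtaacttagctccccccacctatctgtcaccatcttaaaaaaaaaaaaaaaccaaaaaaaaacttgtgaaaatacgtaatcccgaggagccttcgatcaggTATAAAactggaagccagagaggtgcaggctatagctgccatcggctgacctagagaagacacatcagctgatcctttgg

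Under the same block Ltb moved the other way and rose with PI3Kdi in both genotypes, and it was the member with the widest spread between groups. WT libraries held 58.06, 59.72 and 71.90 FPKM and WT+PI3Kdi libraries 95.24, 91.84 and 116.52 FPKM. FOXO1-GFP KO libraries held 22.67, 27.48 and 39.69 FPKM and FOXO1-GFP KO+PI3Kdi libraries 39.93, 53.28 and 87.34 FPKM. In each genotype the libraries with PI3Kdi stood above those without it, in FOXO1-GFP KO CTL by a narrow margin. Group means were 63.2 ± 7.56 and 101.2 ± 13.4 FPKM in WT and 29.9 ± 8.77 and 60.2 ± 24.4 FPKM in FOXO1-GFP KO CTL (SD, n = 3). With the block, limma gave a log2 fold change of 0.68 ± 0.11 in WT (adjusted p = 0.00254) and of 0.97 ± 0.11 in FOXO1-GFP KO CTL (adjusted p = 0.000448). Without it the same changes had adjusted p values of 0.772 and 0.571, and their average of 0.82 one of 0.0880. The average under the block had an adjusted p of 3.4e-05.

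Ltb was also lower in FOXO1-GFP KO CTL, a difference called without the block. The 3 FOXO1-GFP KO libraries were below the 3 WT libraries, and the same held with PI3Kdi. Averaged over the treatments, the log2 difference was -0.96 ± 0.19, a fold change of 1.95, with an adjusted p of 0.0163 from limma. With the replicate block it was -0.96 ± 0.20 with an adjusted p of 0.0535, which no longer passed. At each treatment alone it was -1.11 (adjusted p = 0.131) and -0.82 (adjusted p = 0.227) without the block, and it was not called. The difference between the responses was 0.29, with a 95% interval from -0.03 to 0.62 under the block and an adjusted p of 0.524. Mean Ltb in FOXO1-GFP KO+PI3Kdi CTL, 60.2 FPKM, stood beside 63.2 FPKM in WT CTL without the inhibitor.

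B cell transcripts differed between the genotypes in the same direction as Ltb. Ighm, the immunoglobulin heavy chain µ, had an average log2 difference of -1.99 between FOXO1-GFP KO and WT CTL (adjusted p = 0.000131). The 3 of 12 B cell markers in the table (Cd79b, Ighm and Igkc) summed to 11.4 to 15.6 FPKM in the WT libraries and to 15.3 to 19.5 with PI3Kdi. The FOXO1-GFP KO sums were 4.48 to 6.88 FPKM without and 4.31 to 6.36 with it. In WT CTL, Igkc, the immunoglobulin κ chain, was higher with PI3Kdi by 1.35 (adjusted p = 0.0294 with the block, 0.837 without it), in groups that overlapped. Ighm had a log2 change of 0.51 there (adjusted p = 0.0191 with the block, under a fold change of 1.5), in groups that did not overlap. In FOXO1-GFP KO CTL the sums overlapped between the 2 groups, and the blocked changes of Igkc and Ighm were -1.13 (adjusted p = 0.0511) and -0.28 (adjusted p = 0.128), with Igkc listed at 0 in the 3 libraries with PI3Kdi. Ltb, Igkc, Ighm and Cd4 were thus all higher with PI3Kdi in WT CTL, where Ifng was lower. The other B cell and CD4 T cell markers of the table did not share this rise. Cd79b changed by 0.02 and Cd40lg by -0.05 on the log2 scale, and mean Zbtb7b was 6.43 FPKM without and 6.02 with PI3Kdi. Cd4 and Igkc were low, at no more than 0.95 and 2.84 FPKM in the WT+PI3Kdi libraries. The part of these other cell types' transcripts in the changes of Ltb and Ifng was not tested.

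Tnf and Lta, the neighbours of Ltb, did not pass the test in any comparison. Tnf stood at 69.02, 84.15 and 94.54 FPKM in the WT libraries and 59.20, 78.90 and 73.68 with PI3Kdi. Values in FOXO1-GFP KO CTL were 66.79, 53.00 and 70.72 FPKM without and 77.16, 52.70 and 64.82 with PI3Kdi. Lta stood at 201.17, 257.10 and 311.88 FPKM in the WT libraries and 225.54, 268.00 and 260.42 with PI3Kdi. The FOXO1-GFP KO libraries held 164.40, 199.33 and 238.05 FPKM without and 201.06, 194.42 and 241.50 with PI3Kdi. For both genes every pair of groups overlapped. The log2 changes of Tnf with PI3Kdi were -0.22 (95% interval -0.61 to 0.16) in WT and 0.02 (-0.36 to 0.41) in FOXO1-GFP KO CTL. Those of Lta were -0.01 (-0.40 to 0.38) and 0.09 (-0.30 to 0.48). For Lta these intervals exclude a 1.5-fold change in either direction, and under the block they narrowed to -0.21 to 0.19 and -0.11 to 0.29. Between the genotypes Tnf differed by -0.38 (-0.76 to 0.01) without and -0.13 (-0.51 to 0.26) with PI3Kdi, and Lta by -0.35 (-0.74 to 0.04) and -0.25 (-0.64 to 0.15).

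The 3 genes lie within 10913 bp of chromosome 17 in GRCm38. Ltb (ENSMUSG00000024399) is on the plus strand at chr17:35194439-35196320, Tnf (ENSMUSG00000024401) on the minus strand at chr17:35199381-35202007 and Lta (ENSMUSG00000024402) on the minus strand at chr17:35203165-35205351. Ltb thus ends 3060 bp from Tnf, and Tnf 1157 bp from Lta, and Ltb and Lta each overlap an annotated microRNA gene of their own strand. The ratio of Ltb to Lta was 0.250 ± 0.0330 in WT CTL and 0.404 ± 0.0547 when PI3Kdi was added (SD, n = 3). The FOXO1-GFP KO ratio was 0.147 ± 0.0167, and 0.278 ± 0.0816 when PI3Kdi was added. By library, it ran from 0.231 to 0.289 in WT and from 0.343 to 0.447 in WT+PI3Kdi, without overlap. In FOXO1-GFP KO it ran from 0.138 to 0.167 and with PI3Kdi from 0.199 to 0.362, again without overlap. The ratio of Ltb to Tnf was 0.841, 0.710 and 0.761 in the WT libraries and 1.61, 1.16 and 1.58 in the WT+PI3Kdi libraries, without overlap. Those of FOXO1-GFP KO stood at 0.339, 0.518 and 0.561 and those of FOXO1-GFP KO+PI3Kdi at 0.517, 1.01 and 1.35, so the 2 groups overlapped for this ratio although it was higher with PI3Kdi in 3 of 3 pairs. The ratio of Tnf to Lta lay between 0.262 and 0.406 in the 12 libraries. Since a ratio within a library does not depend on its scaling, these values are not set by the normalization.

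**Figure D4:**
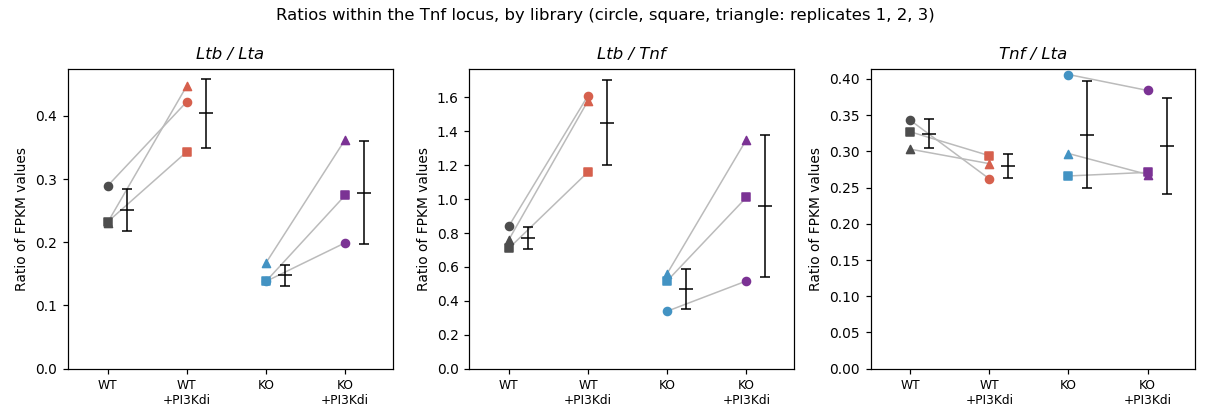
Ratios of FPKM values of the 3 neighbouring genes (vertical axes, from 0) by library in the 4 groups, with KO for FOXO1-GFP KO. Lines join libraries of the same genotype and replicate number and black bars are the mean and SD of 3 libraries. Ltb relative to Lta was higher with PI3Kdi in each genotype and lowest in FOXO1-GFP KO CTL, whereas Tnf relative to Lta stayed between 0.262 and 0.406.

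The promoters of the 3 neighbours are shown because Ltb was called in comparisons of PI3Kdi and of genotype and the others were not. They are from RefSeq on GRCm38.p6, each 300 bases with 250 before the start site. The Ltb window is chr17:35194257-35194556 on the plus strand, the Tnf window chr17:35201958-35202257 and the Lta window chr17:35205302-35205601, both on the minus strand. Capitals mark matches, on either strand, to the motifs FOXO (GTAAACA), NFAT (GGAAAA), AP-1 (TGANTCA), NF-kB (GGG, 5 free bases and CC), STAT (TTCNNNGAA), T-box (AGGTGTGA) and the TATA box (TATAAA), and adjacent or overlapping matches run together.

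Ltb promoter: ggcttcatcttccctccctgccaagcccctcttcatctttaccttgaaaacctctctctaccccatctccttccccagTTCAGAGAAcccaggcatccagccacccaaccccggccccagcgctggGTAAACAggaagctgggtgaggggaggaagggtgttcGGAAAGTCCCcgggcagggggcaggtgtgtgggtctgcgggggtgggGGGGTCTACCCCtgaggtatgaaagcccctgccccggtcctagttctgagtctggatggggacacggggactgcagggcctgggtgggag

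Tnf promoter: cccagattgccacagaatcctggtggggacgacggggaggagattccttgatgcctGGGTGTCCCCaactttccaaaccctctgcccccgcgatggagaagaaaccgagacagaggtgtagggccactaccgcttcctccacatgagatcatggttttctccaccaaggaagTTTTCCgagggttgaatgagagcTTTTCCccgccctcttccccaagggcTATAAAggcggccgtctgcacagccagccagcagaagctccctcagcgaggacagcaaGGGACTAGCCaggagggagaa

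Lta promoter: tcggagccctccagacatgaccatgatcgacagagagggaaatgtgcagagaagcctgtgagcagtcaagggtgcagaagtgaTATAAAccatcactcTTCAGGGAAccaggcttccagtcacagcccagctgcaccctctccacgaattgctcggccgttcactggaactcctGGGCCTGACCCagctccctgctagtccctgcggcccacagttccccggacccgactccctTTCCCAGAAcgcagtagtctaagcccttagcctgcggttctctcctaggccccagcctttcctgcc

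The Ltb window held a FOXO motif beginning 124 bases before the start site, 1 STAT motif and 4 NF-kB matches, 3 of which overlap each other. Promoters matched 6 of 9 members (Ifng, Tnf, Lta, Ltb, Csf2 and Lif, and not Il10, Il24 and Cd40lg). Of these 6, Ltb was the 1 with the FOXO motif, which 3.65% of 32851 promoters held. Tnf held 2 NFAT motifs (23.4% of promoters) and Lif 1 AP-1 motif (7.81%). The NF-kB motif was in 5 of the 6 members, Ifng being the exception, but in 50.8% of all promoters. The Csf2 window, chr11:54249850-54250149 on the minus strand, lies wholly upstream of the gene position used here. It does not hold the start of that gene model. The STAT motif was in 3 of 6 (Ifng, Lta and Ltb) and the letters TATAAA in 3 of 6 (Ifng, Tnf and Lta). These letters began 30 bases before the start site in Ifng and 29 in Tnf, but 167 in Lta. The T-box motif was in 0 of 6 (1.28% of promoters). A match is a run of letters and no evidence of binding.

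Csf2, the gene of GM-CSF, was low. WT libraries held 1.54, 3.12 and 1.93 FPKM and WT+PI3Kdi libraries 1.44, 1.31 and 0.81 FPKM. FOXO1-GFP KO libraries held 2.66, 1.22 and 2.43 FPKM and FOXO1-GFP KO+PI3Kdi libraries 1.63, 1.19 and 0.99 FPKM. The WT and WT+PI3Kdi libraries did not overlap, whereas those of the FOXO1-GFP KO groups did. Averaged over the genotypes, the log2 change with PI3Kdi was -0.73 ± 0.16 with an adjusted p of 0.00998 from limma with the block, and was called, but -0.73 ± 0.24 with an adjusted p of 0.305 without it. Within WT it was -0.81 (adjusted p = 0.0542 with the block) and within FOXO1-GFP KO -0.64 (adjusted p = 0.0953), neither called. The blocked WT change passed (-1.14 to -0.81) when replicate 1 of either WT group, or replicate 2 or 3 of either FOXO1-GFP KO group, was left out. The libraries held 10 to 120 Csf2 reads, for a counting error of 9.13% to 31.6%. Csf2 (ENSMUSG00000018916) lies on the minus strand at chr11:54247271-54249667, where the annotation has an antisense gene, Gm12223. Whether counting used strand is not given in the sources used here, so reads of the 2 genes cannot be told apart.

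Of the cluster on chromosome 1, Il24 was the member that differed most clearly between the genotypes. WT libraries held 41.74, 45.92 and 40.20 FPKM without and 42.31, 58.45 and 45.14 with PI3Kdi. FOXO1-GFP KO libraries held 54.18, 57.20 and 55.86 FPKM without and 91.12, 87.22 and 80.08 with it. The 3 FOXO1-GFP KO+PI3Kdi libraries were the highest of the 12. Group means were 42.6 ± 2.96, 48.6 ± 8.62, 55.7 ± 1.51 and 86.1 ± 5.60 FPKM (SD, n = 3), in the same order. With PI3Kdi, FOXO1-GFP KO CTL exceeded WT CTL in Il24 by 0.84 ± 0.12 on the log2 scale, a fold change of 1.78, with an adjusted p of 0.00478 from limma (0.00956 with the block). Averaged over the treatments the difference was 0.61 ± 0.08 with an adjusted p of 0.00207, and with the block the adjusted p was 0.0514. Without WT+PI3Kdi replicate 1 the average difference was 0.57, under a fold change of 1.5. Without PI3Kdi the difference was 0.39 (adjusted p = 0.320), with groups that did not overlap.

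In FOXO1-GFP KO CTL Il24 rose with PI3Kdi by 0.63 ± 0.07 (adjusted p = 0.000380 with the block, 0.235 without it). The change was 0.57, under a fold change of 1.5, when FOXO1-GFP KO replicate 1 or FOXO1-GFP KO+PI3Kdi replicate 1 was left out. In WT CTL the change was 0.18 (95% interval 0.03 to 0.32 with the block, adjusted p = 0.126), and the libraries overlapped. The 2 changes differed by 0.45, with an interval from 0.24 to 0.65 with the block, an unadjusted p of 0.00045 and an adjusted p of 0.0966. Over all genes this difference did not pass. Averaged over the genotypes the change was 0.40 ± 0.05 (adjusted p = 0.000168 with the block), short of the fold change required.

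Il10, its relative, was not called in any comparison. It stood at 56.47, 57.60 and 34.34 FPKM in the WT libraries and 31.30, 69.25 and 47.26 with PI3Kdi. In the FOXO1-GFP KO libraries it stood at 48.41, 33.88 and 39.70 FPKM without and 64.18, 50.81 and 49.48 with PI3Kdi. WT+PI3Kdi held both the lowest and the highest of the 12 values. The FOXO1-GFP KO+PI3Kdi libraries were above the FOXO1-GFP KO libraries, with a log2 change of 0.44 and an adjusted p of 0.148 under the block, so that Il10 was not called. In WT the change was -0.04, with an interval from -0.65 to 0.57. The 2 changes differed by 0.48, with an interval from -0.10 to 1.06 and an adjusted p of 0.56 from limma with the block. A difference as large as that of Il24, and none, are both within that interval. Il24 (ENSMUSG00000026420, minus strand, chr1:130882074-130887454) and Il10 (ENSMUSG00000016529, plus strand, chr1:131019845-131024974) are 132390 bp apart. The ratio of Il24 to Il10 was 0.902 ± 0.234 in WT CTL and 1.05 ± 0.267 when PI3Kdi was added (SD, n = 3). The FOXO1-GFP KO ratio was 1.40 ± 0.285, and 1.58 ± 0.151 when PI3Kdi was added.

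Lif was lower with PI3Kdi in each pair, on average by less than 1.5-fold. It stood at 56.07, 43.60 and 30.88 FPKM in the WT libraries and 35.05, 37.23 and 22.45 with PI3Kdi. Values in FOXO1-GFP KO CTL were 44.43, 34.73 and 32.86 FPKM without and 39.78, 25.26 and 26.17 with PI3Kdi. The groups overlapped in each genotype. The change was -0.45 (adjusted p = 0.0319 with the block) in WT and -0.31 (adjusted p = 0.0948) in FOXO1-GFP KO CTL. On average it was -0.38 ± 0.08 (adjusted p = 0.00673 with the block, 0.551 without it), so the adjusted p under the block passed and the fold change of 1.31 did not. Lif (ENSMUSG00000034394) is on the plus strand at chr11:4257557-4272514.

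Cd40lg was near the limit of these libraries. Its values were 0.76, 0.77 and 0.40 FPKM in the WT libraries and 0.84, 0.53 and 0.47 with PI3Kdi. The FOXO1-GFP KO libraries held 0.53, 0.66 and 0.56 FPKM without and 0.52, 0.76 and 0.23 with PI3Kdi. They rest on 5 to 46 reads, a counting error of 14.7% to 44.7%, and every pair of groups overlapped. The log2 changes with PI3Kdi were -0.05 (95% interval -0.80 to 0.70) and -0.28 (-1.04 to 0.47), and under the block the intervals were -0.51 to 0.41 and -0.74 to 0.18. A 1.5-fold fall in FOXO1-GFP KO CTL was thus within both intervals, a 1.5-fold rise there was in neither, and in WT the blocked interval excludes a 1.5-fold change in either direction while the other holds both. The gene (ENSMUSG00000031132) lies on the plus strand at chrX:57212143-57224042.

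Many cytokine mRNAs carry AU-rich elements in the 3′ UTR, copies of the pentamer ATTTA in the DNA alphabet that RNA-binding proteins such as tristetraprolin (Zfp36) use to hasten decay. These elements were counted in GENCODE M21 transcripts, taking the longest protein-coding transcript of each gene. Of 11290 genes, 69.0% held at least 1 pentamer and the median density was 1.28 per kilobase of 3′ UTR. Csf2 held 9 pentamers, 28.4 per kilobase, a density that 0.0709% of genes reached. Tnf held 8 (10.5 per kilobase), Il24 4 (10.5), Ifng 6 (9.51), Il10 6 (8.50), Lta 3 (5.24), Cd40lg 2 (4.40) and Lif 7 (2.20). Ltb, with a 3′ UTR of 156 bases, held 0. The extended form TTATTTATT, which 7.91% of genes held, was present 5 times in Tnf, 4 in Csf2, 2 in Lif and once in Lta. The 30 bases richest in pentamers are shown for the members lower with PI3Kdi in 6 of 6 pairs and for Tnf, with the pentamers in capitals.

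Csf2, chr11:54247324-54247353, minus strand: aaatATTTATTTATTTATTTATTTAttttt

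Tnf, chr17:35199677-35199706, minus strand: tATTTAttATTTATTTAttATTTATTTAtt

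Ifng, chr10:118445333-118445362, plus strand: ctATTTAttaatATTTAaaactATTTAtat

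Lif, chr11:4272414-4272443, plus strand: ATTTAttcaatgtcatATTTAaaatATTTA

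Csf2 and Ifng, called lower with PI3Kdi on average under the block, are thus AU-rich, and Ltb, which rose, is not. Lif, also lower in 6 of 6 pairs but short of the fold change, held 2.20 per kilobase. That density was reached by 31% of genes. Tnf and Il24 are as dense in the pentamer as Ifng, and Tnf was not called while Il24 rose in FOXO1-GFP KO CTL. Whether message stability took part in any of these changes was not tested. Among 12 regulators of AU-rich mRNA (Zfp36, Zfp36l1, Zfp36l2, Elavl1 and Zc3h12a among them), 0 were called in any of the 7 comparisons by either fit. At an unadjusted p under 0.05 without the block, 0 to 1 of the 12 were below the threshold in each comparison, beside 1.51% to 14.4% of all genes. With the block, 3 of 12 were below it with PI3Kdi in WT, 0 in FOXO1-GFP KO and 5 on average. The shares of all genes there were 23.7%, 29.5% and 36.4%. Zfp36 stood at 7.86 ± 1.91 FPKM in WT and 6.52 ± 2.09 in WT+PI3Kdi (SD, n = 3).

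Receptors for the members were examined next, since CTL can answer their own cytokines. Of 17 receptor genes 11 were in the table, and 6 were not (Csf2rb, Csf2rb2, Il20ra, Il22ra1, Lifr and Ltbr). Ifngr2, the signalling chain of the IFN-γ receptor, was the 1 of 11 called with PI3Kdi. With the block, 2.57% of all genes were called in WT, 2.79% in FOXO1-GFP KO and 2.12% on average. Without the block, 0.467% were called on average. Ifngr2 stood at 4.0, 3.19 and 3.97 FPKM in the WT libraries and 7.01, 5.96 and 5.32 with PI3Kdi. In the FOXO1-GFP KO libraries it stood at 2.26, 2.54 and 4.11 FPKM without and 5.87, 6.19 and 8.72 with PI3Kdi. It rose in both genotypes, opposite in direction to Ifng, by 0.70 ± 0.11 in WT (adjusted p = 0.00275 with the block) and 1.22 ± 0.11 in FOXO1-GFP KO CTL (adjusted p = 0.000165). On average the rise was 0.96 ± 0.16 with an adjusted p of 0.0263 from limma without the block. Ifngr1, the other chain, rose too, in groups that did not overlap, but by less than 1.5-fold. Its means without and with PI3Kdi were 134.1 and 198.7 FPKM in WT and 118.8 and 164.4 in FOXO1-GFP KO CTL. The log2 changes were 0.57 (adjusted p = 0.00034 with the block, 0.264 without it) in WT and 0.47 (0.00146 and 0.627) in FOXO1-GFP KO CTL. Higher values with PI3Kdi were not particular to the IFN-γ receptor. Il10ra, not called, ran from 17.50 to 19.18 FPKM in WT and from 19.50 to 25.75 in WT+PI3Kdi libraries. In FOXO1-GFP KO CTL it ran from 20.19 to 27.16 FPKM without and from 30.21 to 36.36 with PI3Kdi. Tnfrsf1a went the other way in WT CTL, at 15.30 to 16.04 FPKM without and 13.20 to 13.98 with PI3Kdi. Its FOXO1-GFP KO groups overlapped. None of the 11 was called between the genotypes. Without the block, 1 to 2 had an unadjusted p under 0.05 there, beside 6.51% to 14.4% of all genes. With PI3Kdi, 3 of 11 were below that threshold in each comparison without the block, beside 5.14% to 9.47% of all genes. Under the block these counts were 4 in WT, 3 in FOXO1-GFP KO and 5 on average. The shares of all genes were 23.7%, 29.5% and 36.4%. The median change of the 11 with PI3Kdi was 0.10 for WT and 0.11 for FOXO1-GFP KO CTL, beside -0.04 and -0.02 for all genes.

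Other cytokines were mostly not in the table or not called. Of 30 listed 16 were in the table, and Il2, Il3, Il5, Il6, Il13, Il17a, Il21 and Il22 were among the 14 that were not. With PI3Kdi, limma called 0 of 16 without the block. In each such comparison 1 to 3 had an unadjusted p under 0.05, beside 5.14% to 9.47% of all genes. With the block it called 1, Il4, by 1.1 ± 0.29 in WT CTL (adjusted p = 0.0405) from values of 0.13 to 0.59 FPKM. Of all genes, 2.57% were called in that comparison. Under the block 6 of 16 in WT, 5 in FOXO1-GFP KO and 8 on average had an unadjusted p under 0.05. The shares of all genes were 23.7%, 29.5% and 36.4%. Fasl, the ligand by which CTL trigger death through FAS, exceeded its WT level in FOXO1-GFP KO CTL in the presence of PI3Kdi, by 0.63 ± 0.13 (adjusted p = 0.0435). Averaged over the treatments, Csf1 (-1.0, adjusted p = 0.0298) and Il18 (-1.01, adjusted p = 0.0472) were lower in FOXO1-GFP KO CTL without the block, at values of at most 2.27 FPKM, and with the block neither was called. With PI3Kdi present, Il16 differed by -0.60 between the genotypes under the block (adjusted p = 0.0400). Between the genotypes, 1.45% of all genes were called with PI3Kdi present and 2.52% on average. With the block these shares were 1.18% and 0.67%.

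Of 22 transcription factors known to act on cytokine genes, all in the table, 1 was called between the genotypes. Of all genes, 1.45% were called there with PI3Kdi and 2.52% on average, and 1.18% and 0.67% with the block. The factor called was Stat4, which transmits the IL-12 signal to Ifng. It was lower in FOXO1-GFP KO CTL, with a log2 difference of -0.72 on average (adjusted p = 0.000698, and 0.0170 with the block) and of -0.96 with PI3Kdi (adjusted p = 0.00237). Its values were 13.48, 11.61 and 11.15 FPKM in the WT libraries and 18.36, 16.11 and 16.66 with PI3Kdi. Values in FOXO1-GFP KO CTL were 8.06, 8.47 and 9.14 FPKM without and 8.62, 7.71 and 9.91 with PI3Kdi, and the genotypes did not overlap. Ifng was not called between the genotypes in these libraries. With PI3Kdi, limma called 0 of 22 without the block. In each such comparison 1 to 4 had an unadjusted p under 0.05, beside 5.14% to 9.47% of all genes. With the block, Irf4 rose by 0.60 (adjusted p = 0.00780) and Prdm1, which encodes BLIMP1, fell by 0.61 (adjusted p = 0.0227) in WT CTL. Of all genes, 2.57% were called in that comparison. Under the block 6 of 22 in WT, 7 in FOXO1-GFP KO and 10 on average had an unadjusted p under 0.05. The shares of all genes were 23.7%, 29.5% and 36.4%. Tbx21 and Eomes, the T-box factors of CTL, were not called in any comparison. Of 14 genes of the IL-12 and T cell receptor pathways, 1 was called: Cd28 was lower in FOXO1-GFP KO CTL, with an average log2 difference of -0.99 (adjusted p = 0.0324), a call not made with the block. In that comparison 2.52% of all genes were called without the block.

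Across the 12 libraries, the genes whose log2 level was most like that of a member were listed among 10370 with a mean of at least 1 FPKM, as a description with Pearson's r. Ltb was most like Rara (0.97), Lpxn (0.96) and Cxcr4 (0.95), and Lta was most like Pimreg (0.98), Xlr4c (0.97) and Aurkb (0.93). For Ifng they were Cep70 (0.95), 1810006J02Rik (0.94) and Psma6 (0.93), and for Lif Zfp180 (0.96), Klf10 (0.95) and Zfp809 (0.94). Il24 was nearest to Insl6 (0.92), Arl4a (0.89) and P2ry13 (0.89), and Tnf to Rab12, Ube2s and Casp8 (0.89 each). Csf2 was nearest to Nsa2-ps1 (0.89), Snora41 (0.88) and Cdk2 (0.82), and Il10 to Ppp1r15a (0.86), Pim1 (0.85) and Metrnl (0.81). These 12 points share 4 groups and the paired cultures, so that none of them is an independent observation. No member was among the 3 genes nearest to another member, neighbours in the genome included.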

How the data were processed

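RNA was measured in 12 CTL libraries of 4 groups, grouped by the labels. The authors prepared stranded mRNA libraries from 300 ng RNA, aligned reads with STAR 2.7.1a to GRCm38.p6, counted them per gene of Ensembl 98, filtered low genes and scaled by TMM with edgeR, whose version is not given in the sources used here. The deposited values are FPKM, rounded to 2 decimals, per kilobase of summed exon length. Reads were estimated from FPKM, exon length and a depth fitted to genes of up to 400 bp, where 98.8% to 100.0% of values of held-out genes were within 0.15 reads of a whole number (30% by chance).

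Here limma 3.58.1 (R 4.3.3) was run on log2(FPKM + 0.1) with 4 group means and a mean-variance trend. p-values were adjusted by Benjamini-Hochberg over all 13283 genes. A gene was called at an adjusted p under 0.05 and a fold change over 1.5. Since the table holds no counts, this stands in for the study's limma on voom weights. A fold change on the log2(FPKM + 0.1) scale understates the change of low genes. Libraries with the same replicate number deviated together within each genotype (r of 0.59 to 0.84 over 10371 genes in 6 of 6 pairs), and with mixed sign between genotypes (-0.41 to 0.73), so the number was used as a random block within genotype. The labels do not say whether a pair shared a mouse, and p-values measure the spread between these cultures.

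The rule named the 9 members, up to 3 called genes per list and comparison, and the 3 genes most like each member. Members and lists were chosen with earlier results of these data known. The AU-rich search was added later, and GENCODE M21 supplied exons, gene positions and 3′ UTRs. Python 3.11.15 was used for summaries. Counting errors cover counting only. Alternatives were the block, pseudocounts of 1 and 0.01, a mean of at least 1 FPKM, median centring, voom on estimated reads, only the 2 groups compared, and each library left out.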

Additional observations from a re-analysis of the deposited data

How the results depend on the processing

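Of 38 log2 fold changes of the members, 1 changed sign among 330 values from alternatives that kept all 12 libraries: Lta in WT CTL with PI3Kdi, which was 0.02 under median centring. The other pseudocounts, the filter at a mean of 1 FPKM, median centring and voom without a block left the count of members called as it was in each of the 7 comparisons. The replicate block within genotype raised the members called with PI3Kdi from 0 to 2 in WT, from 0 to 3 in FOXO1-GFP KO and from 1 to 3 on average, lowered those called between genotypes on average from 2 to 0, and changed no other count. Under voom on estimated reads with that block these counts were 2, 3, 3 and 2, and 1 member, Ltb, was called between the genotypes without PI3Kdi. A replicate block shared by all groups, which the deviations do not bear out, gave 1, 2 and 2 with PI3Kdi, and 1 and 2 between genotypes without and with it. With only the 2 groups compared, Il24 had an adjusted p of 0.0505 from limma between genotypes with PI3Kdi, so 0 members were called.

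With each library left out, with and without the block, the counts called ranged from 0 to 3 with PI3Kdi in WT, in FOXO1-GFP KO and on average, from 0 to 2 between genotypes on average, and stayed at 1 with PI3Kdi and 0 without it. The Il24 and Ltb differences on average, not called under the block, were called there without WT replicate 1 or WT+PI3Kdi replicate 2 (Il24, 0.64 and 0.66) and without FOXO1-GFP KO+PI3Kdi replicate 3 (Ltb, -1.03). Csf2 in WT was called under the block without WT replicate 1 or WT+PI3Kdi replicate 1 (-1.14 and -1.12), or without replicate 2 or 3 of either FOXO1-GFP KO group (-0.81). Uncalled changes whose sign depended on 1 library were, with PI3Kdi in WT, Cd40lg (-0.31 to 0.14; changed signs at 0.09 and 0.13 among them), Il10 (-0.32 to 0.33; 0.25 and 0.29 among them) and Lta (-0.18 to 0.14; 0.08 and 0.12 among them), and in FOXO1-GFP KO, Cd40lg (-0.59 to 0.10; 0.08 among them), Lta (-0.04 to 0.22) and Tnf (-0.11 to 0.17; -0.08 among them). Between genotypes they were Ifng without PI3Kdi (-0.0003 to 0.32), Tnf with it (-0.26 to 0.01) and the difference of responses of Ltb (-0.02 to 0.55). Depth limited Csf2 and Cd40lg, whose lowest libraries held 10 and 5 reads. Causes of these changes were not tested.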

Other observations

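The 3 FOXO1-GFP KO pairs differed in the Foxo1 signal that remained and, in the same order, in Ltb, a pattern chosen after the values were seen. Without PI3Kdi, Foxo1 stood at 0.58, 1.08 and 1.44 FPKM where Ltb stood at 22.67, 27.48 and 39.69 FPKM. With PI3Kdi, Foxo1 stood at 0.61, 1.06 and 1.75 FPKM where Ltb stood at 39.93, 53.28 and 87.34 FPKM. In WT CTL the order was not shared, since replicate 1 held the most Foxo1 (9.99 FPKM) and the least Ltb (58.06 FPKM). The order in the FOXO1-GFP KO groups was not particular to Ltb. Cd8a, Cd8b1, Cd79b, Ighm, Il16, Fasl and Ifngr2 were among the genes that also rose from replicate 1 to 3 in both groups, and Prdm1 fell. Ighm stood at 2.35, 2.44 and 3.71 FPKM without PI3Kdi and at 1.64, 2.26 and 3.15 with it. Cd8a stood at 139.05, 169.79 and 205.05 FPKM without PI3Kdi and at 179.31, 228.58 and 253.21 with it. With 3 cultures a genotype no test of this order could pass, and its cause was not tested.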
